A study of Mus musculus with 18 samples.

Results

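Butyrophilin-like genes of the gut epithelium and genes of the T cells that live in it were followed across 4 groups of colonic libraries. The set held 10 genes chosen by symbol, of 55453 gene names in the count tables. They were Btnl1, Btnl2, Btnl4 and Btnl6, the T cell genes Cd3e, Cd4, Cd8a and Trdc, and the granzyme genes Gzma and Gzmb. All 10 were found in each of the 18 libraries' tables, and together they took 238 to 1715 counts per library.

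The libraries came from colons of female Swiss Webster mice with colitis-associated dysplasia. Every mouse behind these groups had been given the carcinogen azoxymethane (AOM) when 7 weeks old. Starting at 9 weeks they went through 4 cycles of the colitis agent dextran sulfate sodium (DSS), each with 7 days of 2% DSS and 14 days of plain water. The basal chow, with 2 mg/kg folic acid (FA), was replaced at 11 weeks by chow with either 0 or 8 mg/kg, which was fed for 16 weeks until the colons were collected at 27 weeks. Laser microdissection of fixed sections gave 2 tissues, epithelium free of dysplasia (ND) and polypoid dysplastic lesions (P), and a library was made from 40 ng of RNA. The groups were 0ND (n = 4) and 0P (n = 4) at 0 mg/kg, and 8ND (n = 5) and 8P (n = 5) at 8 mg/kg. The labels do not say which libraries share a mouse or that each came from its own, so the p-values measure the spread between these samples.

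Butyrophilin-like proteins are members of the immunoglobulin superfamily related to the B7 costimulatory molecules. In the mouse gut, Btnl1, Btnl4 and Btnl6 are made by differentiated epithelial cells, and pairs that contain Btnl1 are recognized by gamma delta T cells of the epithelium and keep them there. Btnl2 is known as an inhibitor of T cell activation. Intraepithelial lymphocytes are T cells that sit between epithelial cells, carry the CD3 complex and often a CD8 alpha homodimer, and kill damaged cells with granzymes. HNF4A and HNF4G, nuclear receptors of gut epithelium, are known to be needed for Btnl expression there.

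The 4 Btnl genes lie on chromosome 17 in a stretch of 163 kb (mm10), Btnl2 at chr17:34354822-34369495 and Btnl1 at chr17:34377132-34386028 on the plus strand, Btnl4 at chr17:34466562-34477318 and Btnl6 at chr17:34507804-34517352 on the minus strand. Their promoter windows are shown because the 4 genes fell together in dysplasia. Each is the 250 bases before the RefSeq start in GRCm38.p6, 5′ to 3′ on the gene's own strand, and RefSeq held a window for 4 of 4. The window of Btnl1 is chr17:34376882-34377131 (plus strand), that of Btnl2 chr17:34354572-34354821 (plus strand), that of Btnl4 chr17:34475938-34476187 (minus strand) and that of Btnl6 chr17:34517353-34517602 (minus strand). The RefSeq start of Btnl4 lies inside the GENCODE span of the gene, not at its end. Capitals mark each match to CAAAGTCC, letters of the HNF4 type that were chosen after the values and the sequences had been seen.
Btnl1: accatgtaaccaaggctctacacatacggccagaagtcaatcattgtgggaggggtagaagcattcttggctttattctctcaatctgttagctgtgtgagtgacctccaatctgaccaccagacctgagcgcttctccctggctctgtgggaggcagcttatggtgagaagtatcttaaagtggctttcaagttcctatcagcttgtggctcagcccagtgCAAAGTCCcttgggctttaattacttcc
Btnl2: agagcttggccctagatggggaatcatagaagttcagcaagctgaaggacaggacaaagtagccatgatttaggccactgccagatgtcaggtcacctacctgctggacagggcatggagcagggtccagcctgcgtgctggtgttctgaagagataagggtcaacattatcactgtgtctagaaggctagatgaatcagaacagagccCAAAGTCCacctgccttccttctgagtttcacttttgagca
Btnl4: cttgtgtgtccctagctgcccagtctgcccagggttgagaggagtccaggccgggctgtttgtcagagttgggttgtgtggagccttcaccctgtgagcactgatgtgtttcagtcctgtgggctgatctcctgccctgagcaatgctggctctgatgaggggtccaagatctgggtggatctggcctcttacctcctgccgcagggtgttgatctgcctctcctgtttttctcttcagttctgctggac
Btnl6: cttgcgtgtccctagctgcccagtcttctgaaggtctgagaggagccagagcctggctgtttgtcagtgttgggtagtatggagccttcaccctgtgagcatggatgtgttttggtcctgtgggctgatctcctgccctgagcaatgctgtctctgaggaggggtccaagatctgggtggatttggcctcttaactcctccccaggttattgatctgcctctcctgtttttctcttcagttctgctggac

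The match stood once in Btnl1, with its first base 28 bases before the start, and once in Btnl2, 41 bases before it, both on the gene's strand. No match stood in the windows of Btnl4 or Btnl6 on either strand. The Btnl4 window lies within the GENCODE span of the gene, so the bases before its GENCODE start were not searched. Of 32851 mouse promoter windows of this length, 393 (1.20%) held the letters on at least 1 strand. TTTATNG, letters of the CDX type, stood in none of the 4 windows and in 9.81% of all. The windows of Btnl4 and Btnl6 were 90.5% identical over 252 aligned columns, while the other pairs were 51.6 to 52.9% identical. By GENCODE the former pair sets bases inside Btnl4 against bases before Btnl6. A match is a description of the letters and was not tested as a site.

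The libraries held 3500947 to 17048524 counts on genes (median 10292934.5). Reads without a unique alignment made up 40.1 to 62.2% of the reads per library, and those on no gene 22.0 to 40.7%. Levels are given as CPM, the counts of a gene relative to its library's size after TMM scaling, which assumes that most genes are alike between libraries. Epcam, an adhesion protein that marks epithelium, was high throughout, with group means of 611 to 723 CPM. All 18 libraries also held leukocyte RNA, with the summed level of 6 pan-leukocyte genes at 168 to 698 CPM per library. Libraries 8ND 1 and 8ND 2 stood nearest to dysplasia among the ND libraries, with Pearson r across genes of 0.953 and 0.952 with the mean of 8P, against 0.914 to 0.940 for the other 7 ND libraries with the P mean of their dose. The fits were therefore repeated without them, and each call of a Btnl gene and of Cd4 in 8P held.

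Btnl1, a partner in the known epithelial pairs, had the largest estimated fall of the 4 in dysplasia. It was at 12.1, 12.2, 9.59 and 14.1 CPM in the 0ND libraries and at 1.94, 0.0770, 0.137 and 0.249 CPM in the 0P libraries. In 8ND it was at 4.29, 8.96, 11.7, 9.34 and 13.3 CPM, against 0.255, 1.20, 0, 0 and 1.58 CPM in 8P. Dysplasia and ND did not overlap at either dose. Of the P libraries, 0P 1, 8P 2 and 8P 5 carried most of the remaining Btnl1 reads, 22, 11 and 17 counts. The counts of 0 in 8P 3 and 8P 4 allow up to 0.244 and 0.211 CPM (3 counts, counting error only).

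Btnl4, the most abundant of the 4, was at 34.2, 53.1, 37.7 and 47.4 CPM in 0ND and at 11.3, 7.08, 4.39 and 5.72 CPM in 0P. Its levels were 35.8, 34.1, 32.1, 19.8 and 35.7 CPM in 8ND and 7.98, 7.19, 11.3, 3.03 and 5.75 CPM in 8P. The lowest ND library, 8ND 4, also had the fewest total counts and was still above every P library.

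Btnl6, the partner of Btnl1 in the best-known pair, was at 5.10, 3.53, 4.97 and 4.55 CPM in 0ND and at 0.880, 1.08, 0.274 and 0.435 CPM in 0P. The 8ND libraries gave 1.94, 5.39, 3.54, 3.47 and 4.01 CPM, against 0.511, 0.653, 0.731, 0.211 and 0.278 CPM in 8P. Its groups did not overlap at either dose. Btnl2, the T cell inhibitor, was the lowest of the 4, with 20 to 99 counts per group. It was at 3.95, 1.76, 2.25 and 0.866 CPM in 0ND and 0.352, 0.616, 0.412 and 0.373 CPM in 0P. At 8 mg/kg it was at 0.553, 3.17, 1.82, 1.60 and 2.98 CPM in 8ND and at 0.0639, 1.09, 0.0812, 0.422 and 0.186 CPM in 8P. Here 8ND 1 lay below 8P 2, so the groups overlapped at 8 mg/kg only.

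**Figure D1:**
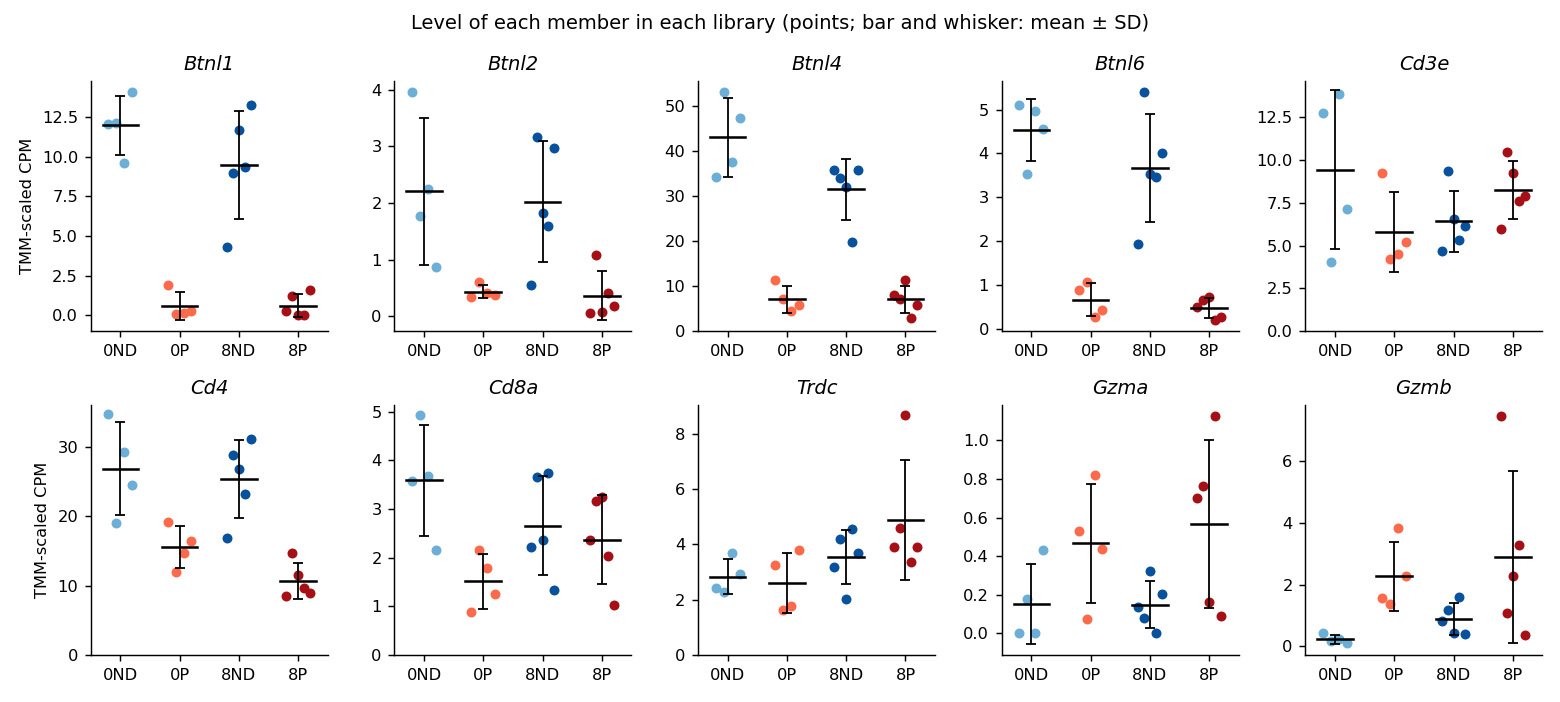
Level of the 10 genes in TMM-scaled CPM (y axis, linear) in the 18 libraries by group (x axis). Points are libraries, the bar is the group mean and the whisker 1 SD. The P libraries of Btnl1, Btnl4 and Btnl6 all lie below the ND libraries of their dose, while those of Trdc do not.

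The comparisons of P with ND at each dose asked what differed between dysplasia and epithelium free of dysplasia. In edgeR, 7 of the 9 tested genes changed in 0P against 0ND, 6 lower and 1 higher, beside 31.6% of all 20787 tested genes in either direction, 15.7% lower and 15.9% higher. In 8P against 8ND, 6 of 9 changed, 5 lower and 1 higher, beside 28.2% of all genes, 14.3% lower and 13.9% higher. The threshold was an adjusted p of 0.05 (Benjamini-Hochberg over all tested genes). Gzma did not pass the filter on low counts, and genes near 0 in one tissue can pass it through the other. Without the filter the 4 Btnl genes were again called lower in both comparisons.

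All 4 Btnl genes fell in both comparisons. Btnl1 was 19.6-fold lower in 0P (log2 fold change -4.29 ± 0.83 SE, adjusted p 0.000798) and 17-fold lower in 8P (-4.09 ± 0.75, adjusted p 0.000687). Btnl4 was 5.99-fold lower in 0P (-2.58 ± 0.32, adjusted p 1.19e-05) and 4.5-fold lower in 8P (-2.17 ± 0.29, adjusted p 3.24e-05). Btnl6 was 6.57-fold lower in 0P (-2.72 ± 0.40, adjusted p 4.63e-05) and 7.71-fold lower in 8P (-2.95 ± 0.38, adjusted p 1.99e-05). Btnl2 was 5.05-fold lower in 0P (-2.34 ± 0.64, adjusted p 0.00870) and 5.99-fold lower in 8P (-2.58 ± 0.60, adjusted p 0.00316).

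The groups of all 4 Btnl genes were separate in 0P against 0ND, and those of 3 in 8P against 8ND, beside 16.1% and 8.94% of tested genes that were separate and lower. The size of the Btnl1 fall rested partly on single libraries. It was -6.10 (log2) without 0P 1 and -4.90 without 8P 5, and limma-voom gave -5.15 and -5.41. Btnl2 was at -3.39 in 8P without 8P 2, and in 0P it was at -1.85 with an adjusted p of 0.0519 without 0ND 1, which ended that call.

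Fewer epithelial cells and less RNA per cell cannot be told apart in such libraries. The summed level of 10 epithelium genes was 5252 ± 912 CPM in 0ND, 4393 ± 723 in 0P, 4678 ± 1038 in 8ND and 3467 ± 518 in 8P. It was 1.20-fold lower in 0P than in 0ND (exact permutation p 0.186, adjusted 0.407) and 1.35-fold lower in 8P than in 8ND (exact permutation p 0.0635, adjusted 0.227). When libraries were scaled to these genes, the Btnl falls were -4.16, -2.21, -2.37 and -2.54 (log2) in 0P and -3.63, -2.25, -1.69 and -2.56 in 8P for Btnl1, Btnl2, Btnl4 and Btnl6. All 8 passed the threshold. That scaling moved the median of all genes to 0.20 and 0.41 (log2), and the calls over all genes from 3304 higher and 3258 lower to 3608 and 1537 in 0P, and from 2894 and 2975 to 5778 and 1067 in 8P.

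**Figure D2:**
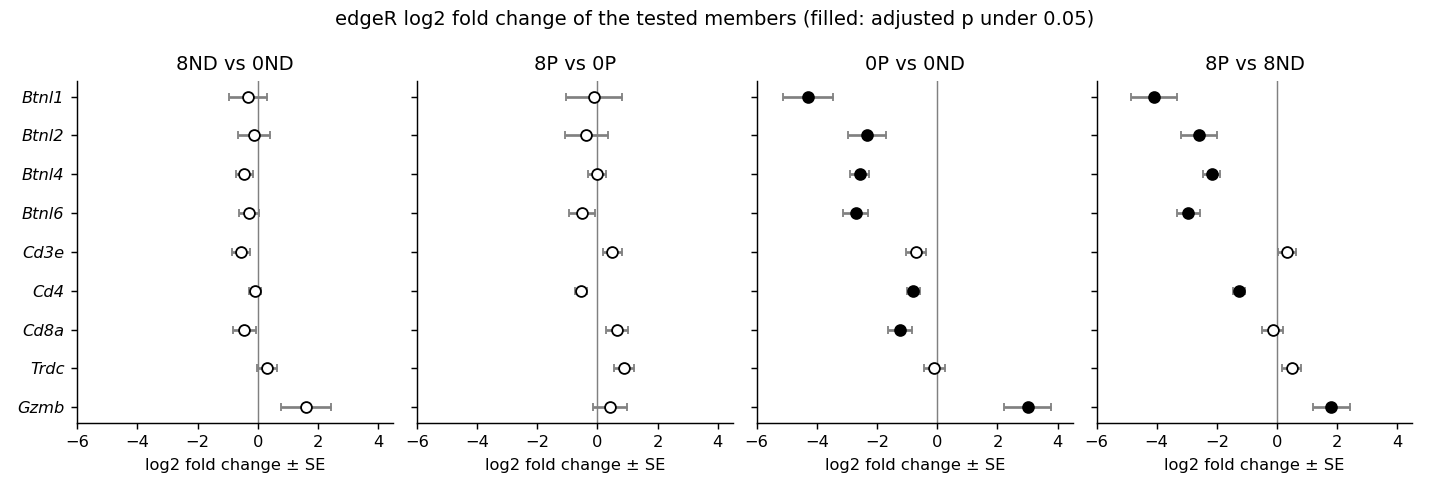
Log2 fold change (x axis, whiskers 1 SE) of the 9 tested genes (y axis) in the 2 comparisons of FA dose (left) and the 2 of dysplasia with ND (right), from edgeR. Filled points passed an adjusted p of 0.05, which 0 genes did for dose, 7 in 0P vs 0ND and 6 in 8P vs 8ND.

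Per kilobase of annotated exon, Btnl4 was the highest Btnl gene in 0ND, at 18.1 ± 3.66 CPM per kb. Btnl1 followed at 3.72 ± 0.57, Btnl6 at 2.59 ± 0.41 and Btnl2 at 0.853 ± 0.501 CPM per kb. In 0P the levels were 2.99 ± 1.25 for Btnl4, 0.381 ± 0.214 for Btnl6, 0.186 ± 0.277 for Btnl1 and 0.169 ± 0.047 for Btnl2. The spreads of Btnl6, Btnl1 and Btnl2 overlapped in 0P, so their order there is not resolved. In 8ND the order was that of 0ND, with Btnl1 at 2.95 ± 1.06 and Btnl6 at 2.10 ± 0.71 CPM per kb, a difference smaller than the sum of their SDs.

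The neighbours of the 4 genes were read along the same stretch. Btnl5-ps and Btnl7-ps, pseudogenes between and beyond Btnl4 and Btnl6, fell with them. Btnl5-ps was at 37.7 ± 2.18 CPM in 0ND and 5.14 ± 3.23 in 0P, with a log2 fold change of -2.87 ± 0.31 (edgeR adjusted p 3.15e-06), and at -2.90 ± 0.28 in 8P (adjusted p 3.56e-06). Btnl7-ps was at -3.75 ± 0.54 in 0P (adjusted p 3.64e-05) and -2.99 ± 0.46 in 8P (adjusted p 0.000103). BC051142, which lies between Btnl1 and Btnl4, was at -1.04 in 0P (adjusted p 0.0601) and fell by 2.24 in 8P (adjusted p 0.000412).

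Reads of these copies are hard to assign. Of the stretches of 50 bases in Btnl4 transcripts, 9.11% also stood in Btnl5-ps, 4.94% in Btnl7-ps and 1.16% in Btnl6. For Btnl6 the shares were 3.53% with Btnl5-ps, 3.41% with Btnl7-ps and 1.59% with Btnl4. Btnl1 and Btnl2 shared none with the other 3 members or with either pseudogene. The values of Btnl4, Btnl6 and the pseudogenes are therefore less certain than those of Btnl1 and Btnl2. Of the 18 other butyrophilin family and Skint genes in the tables, 7 could be tested. Of these, 3 fell in 0P and 2 in 8P, beside 15.7% and 14.3% of all genes called lower. Btnl9, on chromosome 11, was the third gene in 0P, at -1.60 ± 0.46 (edgeR adjusted p 0.0106), which became -1.27 with an adjusted p of 0.0602 without 0ND 1 and -2.22 without 0P 1.

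**Figure D3:**
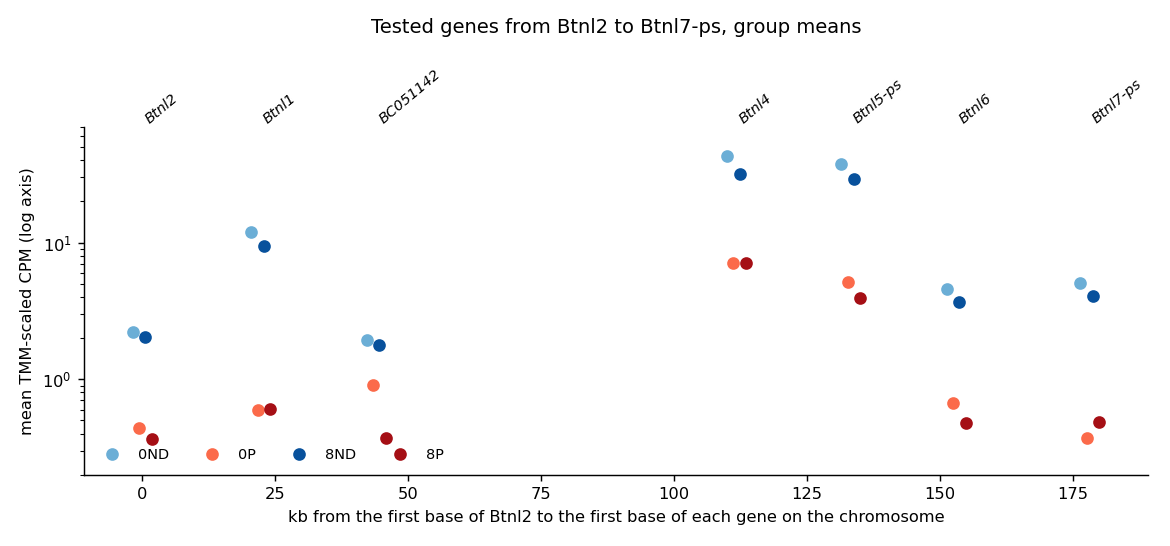
Group means of TMM-scaled CPM (y axis, log scale) for the 7 tested genes from Btnl2 to Btnl7-ps, by distance in kb of each gene's first base from that of Btnl2 (x axis). Both ND groups lie above both P groups for each gene, with Btnl4 and Btnl5-ps the highest.

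The estimated fall of Btnl1 was larger than that of Btnl4, so the ratio of 2 genes within a library was also examined, a choice made after the values had been seen. The log2 ratio of Btnl1 to Btnl4 counts was -1.49, -2.12, -1.97 and -1.75 in 0ND and -2.51, -5.95, -4.44 and -4.36 in 0P. In 8ND it was -3.04, -1.92, -1.45, -1.07 and -1.43, and in 8P -4.80, -2.53, -8.12, -6.44 and -1.84. The 0P libraries all lay below the 0ND libraries, whereas 8P 2 and 8P 5 lay within the range of 8ND. The difference was -2.48 in 0P (two-sided exact permutation p 0.0286, the smallest that 4 against 4 allows) and -2.96 in 8P (exact permutation p 0.0556). Over the 12 ratio tests the adjusted values were 0.171 and 0.222, so neither passed. Btnl2 and Btnl6 relative to Btnl4 differed by 0.58 and -0.18 in 0P and by -0.51 and -0.67 in 8P, with exact permutation p of 0.0952 or more.

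Among 11748 genes with a mean of at least 5 CPM, 6 were named whose variation around the group means was most like that of Btnl1 over the 18 libraries. These were Wnt2b, Fbln1, Prelp, Dst, Mfap4 and Fcer1g, with Pearson r of 0.884, 0.873, 0.873, 0.864, 0.864 and 0.844. The points share library depth, and with 0 to 22 counts of Btnl1 in the P libraries its deviations there rest on few reads.

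Cd3e, Cd4, Cd8a and Trdc mark T cells, the classes that carry CD4 or CD8, and gamma delta T cells. They lie apart in the genome, Cd3e at chr9:44998740-45009627, Cd4 at chr6:124864692-124888221, Cd8a at chr6:71373427-71379173 and Trdc at chr14:54142851-54148868 (mm10). Cd3e, a chain of the CD3 complex that all T cells carry, was at 12.7, 4.06, 13.9 and 7.15 CPM in 0ND and at 9.24, 4.23, 4.53 and 5.23 CPM in 0P. For 8ND the levels were 4.70, 9.35, 6.55, 5.34 and 6.16 CPM, and for 8P 6.0, 10.5, 9.26, 7.60 and 7.89 CPM. The groups overlapped in both comparisons. Cd3e was at -0.72 ± 0.33 (log2) in 0P (edgeR adjusted p 0.106) and at 0.34 ± 0.30 in 8P (adjusted p 0.433). Without 0ND 2 the former was -0.95 with an adjusted p of 0.0225, and without 0P 1 it was -1.03 with an adjusted p of 0.0245.

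Cd4, the coreceptor of helper and regulatory T cells that mouse macrophages can also carry, was at 34.8, 19.0, 29.2 and 24.5 CPM in 0ND and at 19.2, 12, 14.7 and 16.5 CPM in 0P. At 8 mg/kg Cd4 was at 16.9, 28.9, 26.8, 23.2 and 31.1 CPM in 8ND and at 8.49, 14.7, 11.5, 9.71 and 8.91 CPM in 8P. Every 8P library was below every 8ND library, and at 0 mg/kg the groups met at 0ND 2 and 0P 1. Cd4 was 1.73-fold lower in 0P (-0.79 ± 0.22 log2, edgeR adjusted p 0.00902) and 2.40-fold lower in 8P (-1.26 ± 0.20, adjusted p 0.000132). Scaled to the epithelium genes, the fall in 0P was -0.61 with an adjusted p of 0.139, and that in 8P was -0.87 with an adjusted p of 0.0163.

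Cd8a, the CD8 alpha chain of most intraepithelial lymphocytes, was at 3.57, 4.94, 3.67 and 2.17 CPM in 0ND and at 0.880, 2.15, 1.78 and 1.24 CPM in 0P. At the higher dose it was at 2.21, 3.65, 2.36, 3.74 and 1.34 CPM in 8ND and at 2.36, 3.16, 3.25, 2.04 and 1.02 CPM in 8P. The 0P libraries lay just below the 0ND libraries, and at 8 mg/kg the groups overlapped. Cd8a was 2.35-fold lower in 0P (-1.23 ± 0.39 log2, edgeR adjusted p 0.0214) and at -0.15 ± 0.35 in 8P (adjusted p 0.791). The call in 0P was lost without 0ND 2 (-1.06, adjusted p 0.0627), without 0P 1 (-1.04, adjusted p 0.0638), without 0P 4 (-1.14, adjusted p 0.0654) and on the scale of the epithelium genes (-0.98, adjusted p 0.149). Cd8b1, the CD8 beta chain, had 15 to 31 counts per group and did not pass the filter.

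Trdc, the constant segment of the T cell receptor delta chain, was at 2.42, 2.29, 3.67 and 2.92 CPM in 0ND and at 3.26, 1.62, 1.78 and 3.79 CPM in 0P. Its 8ND levels were 3.18, 4.2, 2.04, 4.54 and 3.7 CPM, and its 8P levels 3.90, 4.57, 8.69, 3.38 and 3.90 CPM. The ND and P libraries overlapped at both doses, with 8P 3 the highest of all 18. Trdc was at -0.09 ± 0.35 (log2) in 0P (edgeR adjusted p 0.872) and 0.48 ± 0.31 in 8P (adjusted p 0.263). Per kb of exon the 4 genes stood in the order Cd4, Cd3e, Cd8a and Trdc in 0ND, at 6.67 ± 1.67, 2.32 ± 1.14, 0.986 ± 0.312 and 0.731 ± 0.162 CPM per kb, with Cd3e above Cd8a and Cd8a above Trdc by less than the sum of their SDs. In 8P the order was Cd4, Cd3e, Trdc and Cd8a, at 2.65 ± 0.63, 2.02 ± 0.42, 1.26 ± 0.56 and 0.651 ± 0.251 CPM per kb, each differing from the next by less than the sum of their SDs.

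Cd4 was above Cd3e in all 18 libraries, and the size of their ratio was lowest in 8P, in a ratio chosen after the values had been seen. The log2 ratio of Cd4 to Cd3e counts was 1.45, 2.21, 1.07 and 1.77 in 0ND and 1.05, 1.5, 1.68 and 1.65 in 0P. In 8ND it was 1.83, 1.62, 2.03, 2.09 and 2.33, and in 8P 0.50, 0.49, 0.32, 0.35 and 0.17. All 5 libraries of 8P lay below the other 13. The difference between 8P and 8ND was -1.61 (two-sided exact permutation p 0.00794, the smallest that 5 against 5 allows, adjusted 0.0952), and that between 0P and 0ND was -0.15 (exact permutation p 0.6). Neither passed after adjustment over the 12 ratios. The ratio of Trdc to Cd3e differed by 0.43 in 0P and 0.05 in 8P, and that of Cd8a to Cd3e by -0.62 and -0.56, with exact permutation p of 0.214 or more.

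**Figure D4:**
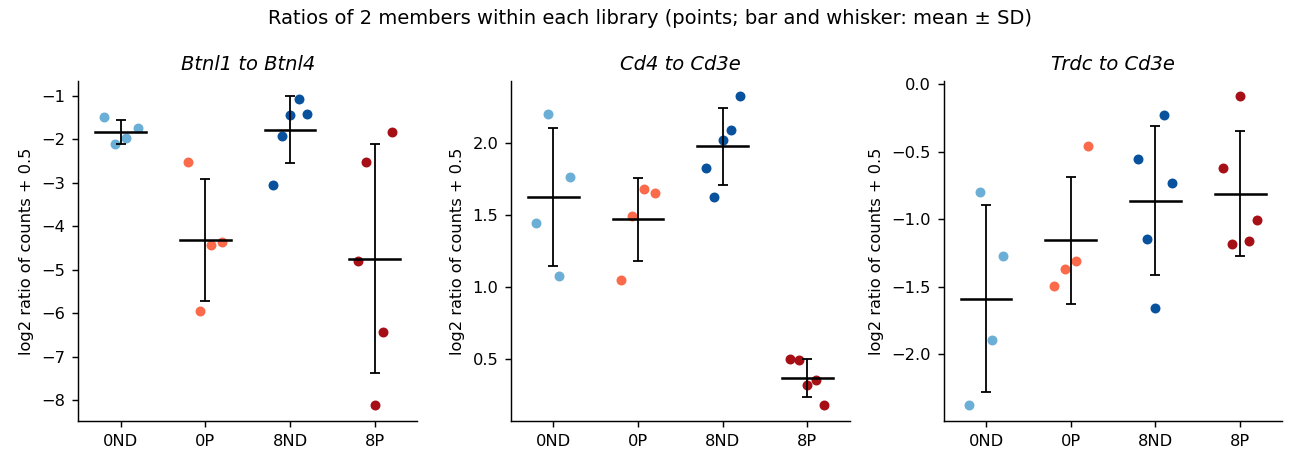
Log2 ratio of the counts of 2 genes within each library, with 0.5 added to each count (y axes), by group (x axis). Points are libraries, the bar is the mean and the whisker 1 SD. The 8P libraries lie at 0.17 to 0.50 for Cd4 to Cd3e, below the other groups.

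Other genes of the T cell receptor complex were read from a list of 14 names, of which 10 stood in the tables and 9 could be tested. Beside the 31.6% of all genes called in 0P, 0 of 9 were called there by edgeR, with 0 at an unadjusted p under 0.05, and 0 by DESeq2 and 1, lower, by limma-voom. In 8P, 1 of 9 rose, Tcrg-C1, a constant segment of the gamma chain (1.66 ± 0.58 log2, edgeR adjusted p 0.0390). That call was lost without 8ND 1, 3 or 4 and without 8P 2, 3 or 4, with adjusted p from 0.0530 to 0.0883. The list's median was 0.07 (log2) in 0P and 0.20 in 8P, beside -0.03 and 0.00 for all genes. Cd3d, a further CD3 chain, was at 13.3 ± 3.58 CPM in 0ND and 14.0 ± 2.09 in 0P, with a log2 fold change of 0.07 ± 0.24 in 0P and 0.14 ± 0.22 in 8P. Cd3e overlaps 2 gene models and Trdc 2 others, whose counts over all libraries were 8 and 190, and 33 and 9.

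Among 14 T cell signaling genes, 1 rose and 2 fell in each comparison, a smaller share than the 31.6% and 28.2% called over all genes, with list medians of -0.25 and -0.18 (log2). Zap70, the kinase that binds the activated receptor, rose by 1.49 ± 0.31 (log2) in 0P (edgeR adjusted p 0.00115) and by 1.16 ± 0.28 in 8P (adjusted p 0.00391). Cd28, the costimulatory receptor, was at -1.67 ± 0.40 in 0P (adjusted p 0.00349) and -1.35 ± 0.36 in 8P (adjusted p 0.00803), the latter with an adjusted p of 0.0537 on the scale of the epithelium genes, where 1 of the 14 fell in 0P and 0 in 8P. Of 14 tested genes of intraepithelial residency, 3 rose in each comparison and 0 fell, near the 15.9% and 13.9% of all genes called higher, with list medians of -0.17 and 0.18 (log2). Cd244a, a receptor of lymphocytes and of mast cells, rose by 2.46 ± 0.32 in 0P (adjusted p 1.82e-05) and 2.13 ± 0.28 in 8P (adjusted p 3.24e-05). The others were Fcer1g, a signaling chain that mast cells also use, and Itgae, the integrin that binds E-cadherin, at 0.78 ± 0.23 in 0P (adjusted p 0.0145) and 0.57 ± 0.21 in 8P (adjusted p 0.0469). The Itgae call was lost without 0P 4 (adjusted p 0.0809) and, in 8P, without 8ND 1, 2 or 4 or 8P 1, 2 or 3 (adjusted p 0.0501 to 0.161). Fcer1g in 8P, at 0.55 (edgeR adjusted p 0.0356), was lost without 8ND 1, 2, 3 or 4 or 8P 2 or 5, with adjusted p from 0.0505 to 0.101.

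Foxp3, the factor of regulatory T cells, was at 0.70 ± 0.33 (log2) in 0P (edgeR adjusted p 0.116) and 0.37 ± 0.29 in 8P (adjusted p 0.374). It was not called. The summed level of its list of 12 CD4 helper and regulatory T cell genes was 88.2 CPM in 0ND and 43.9 in 0P. In 8ND that sum was 71.8 CPM and in 8P 47.6 (exact permutation adjusted p 0.216 in 0P and 0.169 in 8P). The median log2 fold change of its tested genes was -0.02 in 0P and -0.03 in 8P, beside -0.03 and 0.00 for all genes. The lower sums therefore do not describe the typical gene of that list. The summed level of the receptor complex genes was 32.6 ± 8.28 CPM in 0ND, 32.1 ± 11.5 in 0P, 29.7 ± 1.54 in 8ND and 35.1 ± 7.14 in 8P. Over 17 lists and 4 comparisons, 0 of 68 exact permutation tests of summed levels passed, with the smallest adjusted p at 0.0771. The smallest p possible was 0.0286 in 0P against 0ND and 0.00794 in the other comparisons. Sums of other butyrophilin family, absorptive colonocyte, Hnf4 and Cdx, B and plasma cell and neutrophil genes reached it in both comparisons of dysplasia. The sum of intraepithelial residency genes reached it in 8P against 8ND alone, at 247 ± 17.7 CPM in 8ND and 325 ± 37.1 in 8P. Natural killer and innate lymphoid genes and fibroblast genes reached it in 0P against 0ND alone. Absorptive colonocyte genes also reached it in 8ND against 0ND. With so few libraries these tests could hardly pass, so they do not show that the sums were alike. Cd3g, another CD3 chain, was most like Cd3e in its variation around the group means over the 18 libraries, with a Pearson r of 0.846. Ctsc, Alas1, Ubash3b, B4galnt2 and Rinl followed at 0.841 to 0.819.

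Gzmb (chr14:56258838-56262260), the granzyme that starts apoptosis in target cells, rose in dysplasia. It was at 0.446, 0.176, 0.237 and 0.108 CPM in 0ND and at 1.58, 1.39, 3.84 and 2.30 CPM in 0P. At 8 mg/kg the levels were 0.830, 1.19, 0.429, 1.60 and 0.411 CPM in 8ND and 7.47, 1.09, 2.27, 3.31 and 0.371 CPM in 8P. The groups were separate at 0 mg/kg, beside 16.2% of tested genes that were separate and higher, and overlapped at 8 mg/kg, where 8.26% were separate and higher and 8P 5 was below every 8ND library. The log2 fold change was 3.00 ± 0.78 in 0P (edgeR adjusted p 0.00589), or 3.61 without 0ND 1, on 11 counts in 0ND and 101 in 0P.

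In 8P against 8ND, Gzmb was at 1.81 ± 0.60 (log2, edgeR adjusted p 0.0304), and this call did not hold in 10 of 19 alternatives. Without 8P 1, which alone held 117 of the 206 counts of its group, it was 1.09 with an adjusted p of 0.162. It was also lost without 8ND 1, 3 or 5 or 8P 4 (adjusted p 0.0528 to 0.0798), without both 8ND 1 and 8ND 2 (0.0680), in limma-voom (0.142), without the filter (0.0521), with only the 2 groups in the fit (0.0670) and with the replicate number as a block (0.0639).

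Gzma (chr13:113093825-113100981), a granzyme of cytotoxic lymphocytes, had 5 counts in 0ND, 20 in 0P, 7 in 8ND and 37 in 8P. By library it was at 0, 0.176, 0 and 0.433 CPM in 0ND and 0.528, 0.0770, 0.823 and 0.435 CPM in 0P. In 8ND it was at 0.138, 0.0793, 0.322, 0 and 0.205 CPM, and in 8P at 0.703, 0.762, 0.162, 1.13 and 0.0928 CPM. The groups overlapped in both comparisons. In the fit without a filter it was at 1.61 ± 0.91 (log2) in 0P (edgeR adjusted p 0.325) and at 1.79 ± 0.78 in 8P (adjusted p 0.155). Of 12 other cytotoxic effector genes, 4 could be tested, and 1 fell in 0P, beside 15.7% of all genes, and 0 in 8P. It was Klrk1, an activating receptor, at -1.29 ± 0.46 in 0P (adjusted p 0.0377), with adjusted p from 0.0543 to 0.163 without 0ND 1 or 3 or 0P 2, 3 or 4 and 0.118 on the epithelium scale. DESeq2 and limma-voom also called 0 of the 4 in 8P, with 0 at an unadjusted p under 0.05 in edgeR.

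Mast cells are a further source of Gzmb RNA in mice, so their markers were read beside it. Of 9 mast cell genes, 7 rose and 1, Kit, fell in 0P, and 4 rose and Kit fell in 8P. Among all genes 15.9% rose in 0P and 13.9% in 8P. Cpa3, a mast cell protease, rose by 2.55 ± 0.56 (log2) in 0P (edgeR adjusted p 0.00188) and 1.97 ± 0.48 in 8P (adjusted p 0.00467), which became 3.14 without 0ND 1 and 1.25 without 8P 1. Ms4a2, the beta chain of their IgE receptor, rose by 2.58 ± 0.53 (adjusted p 0.00116) and 2.23 ± 0.45 (adjusted p 0.00115). Each of the 9 genes had reads in every group.

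The sum of all 9 genes averaged 68.9 ± 13.5 CPM in 0ND and 120 ± 52.7 in 0P (exact permutation p 0.0857, adjusted 0.247). It averaged 82.1 ± 19.7 CPM in 8ND and 140 ± 153 in 8P (exact permutation p 0.833, adjusted 0.929), with medians of 86.8 and 76.0. Kit, a receptor of other colonic cells as well, was left out of a second sum after its values had been seen. The summed level of the other 8 was 8.46 to 13.6 CPM in 0ND, 45.5 to 170 in 0P, 14.5 to 52.5 in 8ND and 40.0 to 379 in 8P. The library with the highest sum in each P group, 0P 3 at 170 CPM and 8P 1 at 379 CPM, also had the highest Gzmb of its group. In 8ND the highest sum was in 8ND 1 and the highest Gzmb in 8ND 4, and 8P 3, with the lowest sum of its group, had 2.27 CPM of Gzmb. Their part in the Gzmb result was not tested.

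Genes of the epithelial side were read beside the Btnl genes. Of 6 Hnf4 and Cdx factors, 5 fell in each comparison, or 4 on the scale of the epithelium genes. On the main scale 15.7% of all genes fell in 0P and 14.3% in 8P. Hnf4g was at -1.34 ± 0.21 (log2) in 0P (edgeR adjusted p 9.68e-05) and -1.23 ± 0.19 in 8P (adjusted p 0.000110), and Hnf4a at -1.12 ± 0.21 (adjusted p 0.000463) and -0.91 ± 0.19 (adjusted p 0.00126). Cdx1, a homeobox factor of intestinal identity, was at -1.86 ± 0.24 (adjusted p 1.68e-05) and -1.79 ± 0.22 (adjusted p 1.47e-05). Their part in the Btnl falls was not tested. Absorptive colonocyte genes fell in 7 and rose in 1 of 11 in 0P, and fell in 9 and rose in 1 in 8P. Slc26a3, the chloride exchanger of surface colonocytes, was at -4.27 ± 0.60 in 0P (adjusted p 6.98e-05) and -3.99 ± 0.54 in 8P (adjusted p 7.15e-05), and -4.87 in 0P without 0P 1. The list's medians were -1.90 and -1.52, and those of the 4 Btnl genes -2.65 and -2.77, beside -0.03 and 0.00 for all genes.

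Of 13 tested epithelial genes that act on intraepithelial lymphocytes, 5 fell in 0P, and 3 fell and 1 rose in 8P. Over all genes 15.7% fell in 0P, and 14.3% fell and 13.9% rose in 8P. On the scale of the epithelium genes 2 of the 13 fell in 0P and, in 8P, 0 fell and 3 rose. That scale gave 1537 of all 20787 genes lower in 0P, and 1067 lower and 5778 higher in 8P. Il15ra, which presents the survival cytokine IL-15 to these cells, was at -1.20 ± 0.25 (log2) in 0P (edgeR adjusted p 0.00101) and -1.13 ± 0.22 in 8P (adjusted p 0.000855). Il7, a growth factor for gamma delta T cells, was at -1.25 ± 0.25 (adjusted p 0.000780) and -0.96 ± 0.23 (adjusted p 0.00357). On the scale of the epithelium genes the calls in 8P were lost for Il15ra (adjusted p 0.0703) and Il7 (0.175). Il15 itself was at -0.77 ± 0.31 in 0P (adjusted p 0.0616) and -0.13 ± 0.27 in 8P (adjusted p 0.758).

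**Figure D5:**
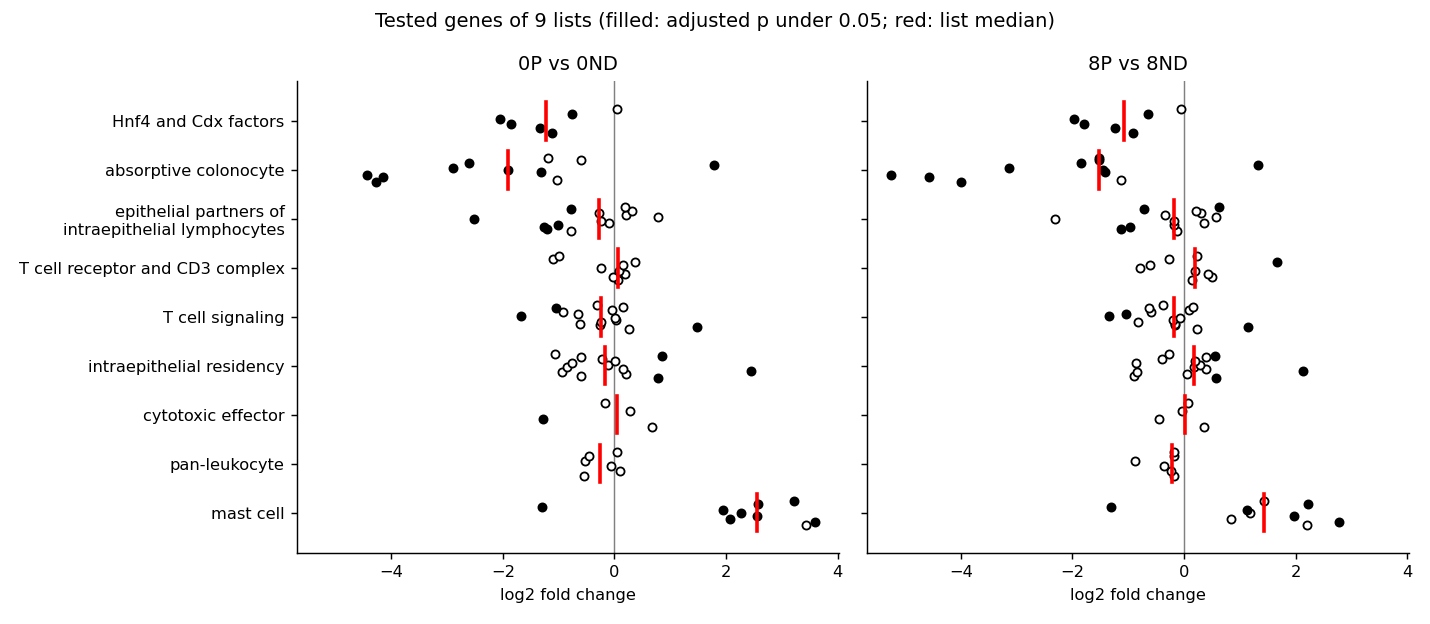
Log2 fold change (x axis) of every tested gene of 9 lists (rows) in 0P vs 0ND and 8P vs 8ND, from edgeR. Filled points passed an adjusted p of 0.05 and red bars are list medians, which lie at -1.23 and -1.07 for Hnf4 and Cdx factors and at 2.55 and 1.43 for mast cell genes.

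Markers of other cell types were read beside the 31.6% of all genes called in 0P and 28.2% in 8P, and their part in the T cell values was not tested. Of 6 pan-leukocyte genes, 0 were called in either comparison by edgeR, DESeq2 or limma-voom, and 0 had an unadjusted p under 0.05 in edgeR. Of 9 B and plasma cell genes, 3 fell in 0P and 6 in 8P, while 4 of 4 neutrophil genes rose in both. Macrophage and dendritic genes rose in 2 of 12 in 0P, and rose in 1 and fell in 1 in 8P, a smaller share than over all genes in edgeR. In 0P, DESeq2 called 5 of the 12 higher, beside 3667 of 20780 genes, and limma-voom 3, beside 3282 of 20787. Natural killer and innate lymphoid genes rose in 1 and fell in 1 of 5 in 0P, with 0 called in 8P (1 at an unadjusted p under 0.05, and 0 by DESeq2 and limma-voom). Fibroblast genes rose in 5 and fell in 2 of 8 in 0P, and rose in 1 and fell in 1 in 8P. Among the 10 epithelium genes, 3 fell and 1 rose in 0P, and 6 fell and 1 rose in 8P. On the scale of those epithelium genes 4 macrophage genes rose in 0P and 6 in 8P, and 6 and 3 fibroblast genes. That scale called 3608 of all 20787 genes higher in 0P and 5778 in 8P.

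The comparisons of FA dose within each tissue asked whether these genes differed between 0 and 8 mg/kg. In 8ND against 0ND edgeR called 0 of 9, beside 0.0481% of all genes (0.0192% lower and 0.0289% higher), and 0 had an unadjusted p under 0.05. In 8P against 0P it called 0 of 9, beside 0% of all genes, and 2 had an unadjusted p under 0.05. DESeq2 and limma-voom called 0 of 9 in both. The pair were Trdc, at 0.88 ± 0.33 (log2, unadjusted p 0.0142), and Cd4, at -0.55 ± 0.21 (unadjusted p 0.0161), each with an edgeR adjusted p of 0.465. The groups of all 9 genes overlapped, beside 1.8% of genes separate and lower and 2.15% separate and higher in 8ND, and 0.89% and 1.36% in 8P. Trdc was at 1.62 to 3.79 CPM in 0P and 3.38 to 8.69 CPM in 8P.

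No Btnl gene passed the test of dose. The log2 values in 8ND against 0ND were -0.33 ± 0.63 for Btnl1, -0.12 ± 0.54 for Btnl2, -0.44 ± 0.28 for Btnl4 and -0.30 ± 0.34 for Btnl6. In 8P against 0P they were -0.12 ± 0.92, -0.37 ± 0.71, -0.02 ± 0.31 and -0.53 ± 0.43 in the same order. Gzmb was at 1.60 ± 0.83 in 8ND against 0ND (edgeR adjusted p 0.565), on 11 and 35 counts, and at 0.41 ± 0.57 in 8P against 0P (adjusted p 0.820).

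The interaction tested whether the difference between dysplasia and ND itself differed between doses, and edgeR called 0 of 9, beside 0% of all genes. Cd3e had the lowest unadjusted p, 0.0276, with a value of 1.05 ± 0.44 (log2) and an adjusted p of 0.437. Cd8a was at 1.08 ± 0.52 (unadjusted p 0.0521, adjusted p 0.485), so that the fall called in 0P and not in 8P was not shown to differ between doses. Cd4 was at -0.47 ± 0.29 (adjusted p 0.594) and the 4 Btnl genes between -0.25 and 0.41 (adjusted p 0.749 to 0.969). DESeq2 and limma-voom also called 0 of 9.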

How the data were processed

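Gene expression was measured by RNA-Seq in laser-microdissected epithelium. The authors deposited raw read counts per gene name, 1 table per library. Bowtie (mm10) did the alignment and HTSeq the counting per the labels and methods. Their versions and the strand option are not given in the sources read, so antisense and overlapping genes cannot be told apart. Reads on no gene, without a unique alignment or ambiguous between genes (0.220 to 0.384%) stayed out of library sizes and tests. Depth was 3500947 to 17048524 counts. The limits for counts of 0 cover counting error only, and no molecular identifiers are described. SE and SD include the spread between libraries.

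Tests used edgeR 4.0.16 under R 4.3.3: filterByExpr by group (minimum count 10), TMM factors, 1 robust quasi-likelihood fit over all 18 libraries, and Benjamini-Hochberg adjustment over 20787 genes. Comparisons sharing a group are not independent. Alternatives were DESeq2 1.42.0 (which the study used beside Cuffdiff), limma-voom (limma 3.58.1), other scalings and filters, a replicate block and fits without single libraries. Fold changes have SE from the F statistic. Sums and ratios were tested by exact permutation. The 10 members and the 17 lists were chosen with earlier results of these data known. The genes named were all members and, from each list, up to 6 called genes with the smallest p that a result turns on. Some others, such as Cd3d, Foxp3 and Il15, were named although not called. For likeness, 6 genes with the highest correlation of log2 CPM (0.5 added) were named, leaving out unnamed models. Gene positions are from GENCODE M21, which held 54512 of the names, and promoters from RefSeq. The counts of the CD4 helper T cell list are not reported here. The fit was tested on simulated data. Same-numbered ND and P libraries deviated together with correlations of only -0.164 to 0.294, so the numbers were not taken to pair samples. No 2 libraries of a group agreed within sampling noise (chi-square per gene 9.44 to 62.0).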

Additional observations from a re-analysis of the deposited data

Results flagged for a closer look

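In all, 3 values stood far from the rest of their group by Dixon's gap, in 40 groups of 1 gene each, where chance gives about 1 in 20. Btnl1 was at 1.94 CPM in 0P 1, with the nearest 0P library at 0.249 CPM. Btnl4 was at 19.8 CPM in 8ND 4, the library with the fewest counts, with the nearest 8ND library at 32.1 CPM. Trdc was at 8.69 CPM in 8P 3, with the nearest 8P library at 4.57 CPM. Cd3e was lower in all 5 libraries of 8ND than the mean of 0ND and higher in all 5 of 8P than the mean of 0P. The test of that difference gave 1.05 (log2) and did not pass (edgeR adjusted p 0.437).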

How the results depend on the processing

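The numbers of members called kept within 1.5 times of the main counts under every alternative run. They were 0 for both dose comparisons and the interaction, 5 to 7 for 0P vs 0ND (6 to 7 without single libraries) and 5 to 6 for 8P vs 8ND (5 to 6 without single libraries). Of the sums, 0 passed in any alternative, where the number of libraries again limited the smallest p. The replicate block was fitted although the labels do not say whether the numbers pair the samples. Of same-numbered pairs, 1 of 4 of 0ND and 0P and 3 of 5 of 8ND and 8P did not correlate best with their own number. Pairing is thus not settled. The block called 0, 0, 7, 5 and 0 members, ending the Gzmb call in 8P vs 8ND, and 5999 genes in 0P vs 0ND and 5328 in 8P vs 8ND. In each case below the main value had not passed. Scaling to the epithelium genes turned Cd4 in 8ND vs 0ND to 0.057, Btnl1 and Btnl4 in 8P vs 0P to 0.37 and 0.42, Trdc in 0P vs 0ND to 0.10 and Cd8a in 8P vs 8ND to 0.20 (log2). Without 8ND 1 and 8ND 2, Cd4 in 8ND vs 0ND was 0.0086, Cd8a in 8P vs 8ND 0.0081 and Btnl1 in the interaction -0.061, and limma-voom gave -0.26 for the last. Leaving out single libraries also turned signs. The ranges were from -0.38 to 0.37 (Btnl2) and -0.21 to 0.068 (Cd4) in 8ND vs 0ND, from -0.93 to 1.69 (Btnl1), -0.26 to 0.28 (Btnl4) and -0.31 to 0.74 (Gzmb) in 8P vs 0P, from -0.34 to 0.085 (Trdc) in 0P vs 0ND, from -0.33 to 0.039 (Cd8a) in 8P vs 8ND, and from -0.60 to 2.01 (Btnl1), -1.05 to 0.062 (Btnl2) and -0.44 to 0.095 (Btnl6) in the interaction. The ratio of Cd4 to Cd3e ran from -0.34 to 0.040 in 0P vs 0ND, and that of Trdc to Cd3e from -0.15 to 0.21 in 8P vs 8ND. The causes were not tested. Over all genes, 10 were called in 8ND vs 0ND, against 316 by DESeq2, 3 by limma-voom, 41 without the filter, 28 with the replicate block, 2 on the epithelium scale, 2 to 157 without single libraries of these groups (157 without 8ND 3) and 0 without 8ND 1 and 8ND 2. DESeq2 called 20 in 8P vs 0P and 82 for the interaction, where edgeR called 0, or 26 for the interaction without 8ND 3. The epithelium scale moved the median of all genes to 0.17 in 8ND vs 0ND, 0.34 in 8P vs 0P and 0.16 for the interaction. Depth limits Btnl2, the granzymes in every group and Btnl1 and Btnl6 in P, where a group held 5 to 206 counts.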
